A study of Mus musculus with 10 samples.

Results

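The genes described here are 33 genes of glycolysis and of the transcriptional response to low oxygen: 2 glucose and lactate transporters, 13 glycolytic enzymes, 3 regulators of glycolysis, and 15 genes made up of the hypoxia factor Hif1a and its targets. They were found on the arrays by the gene symbol of each probe set. That gave 62 of 22690 probe sets and 29 of the 33 genes. Gpi1, Eno1, Pfkfb4 and Ankrd37 had no probe set under their symbol and were not analysed here. Gapdh was matched as a single symbol only by 3 control probe sets and is described without a test. The other 28 genes were among the 7474 of 12393 genes that passed a filter on dim signals, and none of them failed it.

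The samples were dendritic cells grown from bone marrow of C57BL/6 mice, either wild type or Cd14-/-, aged 6 to 8 weeks, in medium with supernatant of tumor cells that secrete GM-CSF. Cultures were used when more than 90% of the cells carried CD11c. CD14 is the co-receptor that hands bacterial lipopolysaccharide (LPS) to TLR4, and the study's stated aim concerned apoptosis genes under NFAT, a calcium-dependent transcription factor. For each genotype, 1 array came from unstimulated cells harvested at 24 h, 2 from cells stimulated for 48 or 60 h with 1 µg/ml LPS, and 2 from cells that had 50 nM thapsigargin beside the LPS over the same times. Thapsigargin inhibits the SERCA pump, which loads calcium into the endoplasmic reticulum, so that calcium in the cytosol goes up. No condition was repeated and thapsigargin was never given alone. The unstimulated cells also spent less time on the plate than any stimulated cells, so LPS and time in culture cannot be told apart.

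Glycolysis turns glucose into pyruvate in the cytosol, and lactate dehydrogenase turns pyruvate into lactate, which leaves the cell through monocarboxylate transporters. Hypoxia-inducible factor 1 is a pair of proteins, HIF-1α and ARNT. HIF-1α is marked for degradation by oxygen-dependent prolyl hydroxylases, and when it persists, through low oxygen or through Toll-like receptor signalling, the pair binds the core sequence ACGTG in hypoxia response elements. Dendritic cells stimulated through TLR4 are known to increase their uptake of glucose and secretion of lactate, and genes of both groups are textbook HIF-1 targets.

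The ACGTG core, read on both strands (ACGTG or CACGT, which overlap in CACGTG), was present in the RefSeq promoter window of most of these genes. A window runs from 250 bases before to 50 bases after an annotated start, in mouse build GRCm38.p6, and 31 of the 33 genes had at least 1 window. Of these 31 genes, 23 (74.2%) held the core in at least 1 window, against 5886 of all 27025 genes (21.8%). It was found in 26 of 46 windows of these genes (56.5%) and in 19.6% of all windows. By role, it was found in 2 of 2 transporters, 8 of 13 enzymes, 1 of 3 regulators and 12 of 13 hypoxia genes. These genes were listed as members of a HIF-driven pathway, so the share is a description of the list. The core was present in 4 of the 5 genes that passed the test for LPS in wild-type cells, described below, and in 17 of the 21 tested genes with a window that were not called there. These shares were not tested against each other, and a gene that was not called may still respond.

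Stretches of 61 bases before the start are printed below for 3 hypoxia targets that LPS raised (Ddit4, P4ha2, Mxi1). Stretches of the same length with the same core are printed for 3 glycolysis genes not called in the main fit (Slc2a1, Pgk1, Ldha). They run in the direction of the gene, and capitals mark each match on either strand. Ddit4 lies at chr10:59951925-59951985, minus strand, with the match 187 bases before the start. P4ha2 lies at chr11:54100818-54100878, plus strand, with the match 78 bases before the start. The Mxi1 stretch is at chr19:53329319-53329379, plus strand, 66 bases before 1 of its starts. That of Slc2a1 is at chr4:119108681-119108741, plus strand, 36 bases before the start. Pgk1 is at chrX:106186922-106186982, plus strand, with its first match 150 bases before the start. Ldha is at chr7:46845631-46845691, plus strand, with its first match 145 bases before 1 of its starts, and its other window held no match.
Ddit4: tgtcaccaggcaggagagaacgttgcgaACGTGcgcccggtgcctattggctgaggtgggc
P4ha2: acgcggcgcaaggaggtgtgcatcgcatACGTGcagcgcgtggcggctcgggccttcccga
Mxi1: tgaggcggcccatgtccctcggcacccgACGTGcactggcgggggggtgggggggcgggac
Slc2a1: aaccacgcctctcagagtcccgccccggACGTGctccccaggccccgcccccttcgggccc
Pgk1: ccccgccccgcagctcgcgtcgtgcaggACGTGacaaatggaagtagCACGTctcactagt
Ldha: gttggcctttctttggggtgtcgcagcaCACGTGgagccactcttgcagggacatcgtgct
The Adm window held no match, and Vegfa held 1 match at 1 of its 2 annotated starts and none at the other.

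Values below are scaled MAS5 signals, which are linear intensities brought to the same 2% trimmed mean on every array. Signals under 13.4 were raised to that floor before log2 was taken. Changes are log2 differences ± the standard error from a single limma model over the 10 arrays. A gene is called when its Benjamini-Hochberg adjusted p over all 7474 genes is under 0.05, and only called genes are said to rise or fall. Because there are no replicates, this error is the departure of the stimulated conditions from a common shift between 48 and 60 h, and it does not cover the spread between cultures or mice. The arrays report RNA from a whole culture, so fewer cells of a type and less RNA per cell cannot be told apart.

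The arrays bore out the genotype and, in part, the cell type. Scaled Cd14 signal ran from 1499 to 17730 on the 5 wild-type arrays and from 1.85 to 7.35 on the CD14-deficient arrays. All 12 dendritic cell markers were tested, with summed signals from 47050 to 82210. Cd74, the invariant chain of MHC class II, ran from 10920 to 15350, while Itgax, which encodes CD11c, ran from 750.4 to 7838 and Flt3 from 53.57 to 1149. Macrophage genes were bright too: the sum over the 11 markers on the array ran from 27390 to 57890 on 9 arrays and was 20970 on the CD14-deficient LPS array at 48 h. That array also had the lowest cRNA yield, 15 µg against 19 to 53.1 µg. Its 3 signals from 18S rRNA lay between 114.4 and 384.7, against 216.8 to 685.1 at 60 h in wild-type LPS cells and at least 1426 on the other arrays. It had the highest dendritic marker sum, 82210, with Ccr7 at 16170 (2667 to 9547 on the others) and Flt3 at 1149 (53.57 to 334.5 on the others). Other markers of that list were low there: Itgax at 891.8, Cd209a at 3.582 and Clec10a at 93.14. The unstimulated CD14-deficient array had 7838, 501.2 and 1086 for these, and most other stimulated arrays were low as well. The RNA integrity number of the 48 h array was 10, the joint highest. The CD14-deficient LPS array at 60 h also stood apart from the other stimulated arrays, in several values on the side of unstimulated cells, some of which follow. Its 18S 5' signal was 10020, against 10980 and 11930 unstimulated and 114.4 to 7417 on the other stimulated arrays. Its middle and 3' 18S signals, 9047 and 6642, were also the highest of the stimulated arrays. Its Itgax signal was 6941, against 7440 and 7838 unstimulated and 750.4 to 2921 on the others. Its sum over 10 cell division genes was 8936, against 7231 to 8758 on the other LPS arrays and 19930 and 23540 in unstimulated cells. None of the 5 T and B cell markers on the array passed the filter.

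Gapdh, the enzyme that oxidises glyceraldehyde 3-phosphate, was steady across the conditions. Its middle control probe set ran from 12470 to 16230 and its 3' probe set from 10910 to 13970. The 5' probe set ran from 13610 to 18460 on 9 arrays and was 11760 on the CD14-deficient LPS array at 48 h. The 3' to 5' ratio, an index of RNA integrity, was 0.98 on that array and between 0.71 and 0.848 on the others. The same ratio for Actb was 1.11 on that array, and highest, at 1.62, in wild-type cells after 60 h of LPS, against 1.02 to 1.14 on the remaining arrays. The RNA integrity number of that wild-type sample was 8.6, where all samples ran from 8.4 to 10.

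In wild-type cells, LPS raised Ddit4, Vegfa, P4ha2 and Mxi1 among the 14 tested hypoxia genes, and none of the 14 tested glycolysis genes was called. Adm was the fifth hypoxia gene called, but it passed the filter only through its wild-type LPS arrays, so its call was favoured by the filter. The calls of P4ha2 and Mxi1, and the lack of calls among the glycolysis genes, did not hold under all settings, as described below. Of the 28 genes together, 5 rose and 0 fell, where 15.9% of all genes were called, 7.69% higher and 8.24% lower. The hypoxia genes had a median change of 0.99 with 14 of 14 positive, the glycolysis genes a median of 0.29 with 10 of 14 positive, and all genes tested a median of -0.03. The array-by-array plot of all 28 genes shows the red rows clustered in the hypoxia group.

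**Figure D1:**
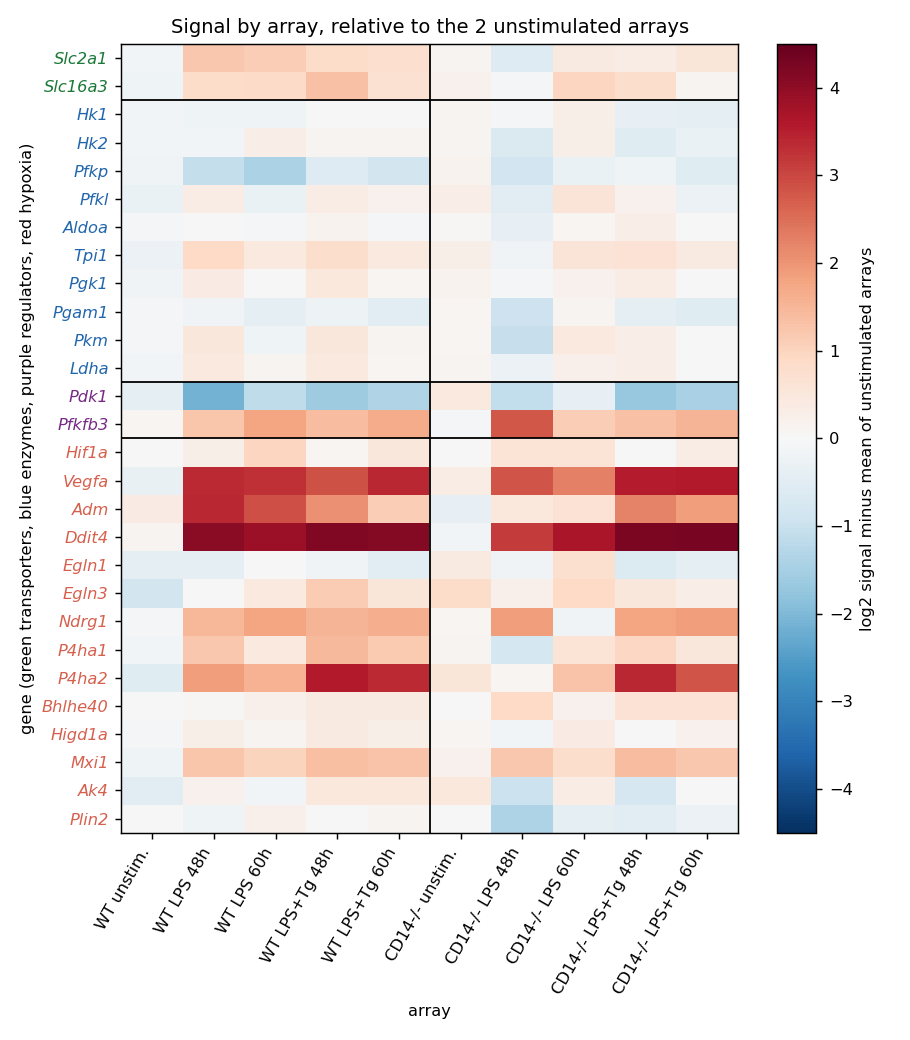
Log2 scaled signal of the 28 tested genes (rows, grouped by role) on each of the 10 arrays (columns), minus the mean of the 2 unstimulated arrays. Colours run from -4.5 to 4.5; Vegfa, Ddit4, Adm and P4ha2 are the deepest red, and the enzyme rows stay pale on most arrays.

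Ddit4 encodes REDD1, an inhibitor of mTORC1 that is induced by low oxygen and other stress. Its signal was 142.5 on the unstimulated wild-type array, 2190 and 1858 on the LPS arrays, and 2331 and 2265 with thapsigargin. All 4 stimulated wild-type arrays were far above the unstimulated array and close to each other. The LPS change was 3.82 ± 0.28 (limma, adjusted p = 0.00225). Vegfa, the growth factor of blood vessels, had signals of 207 without stimulation, 2661 and 2539 with LPS, and 1872 and 2708 with LPS and thapsigargin. It rose by 3.65 ± 0.33 (limma, adjusted p = 0.00402), and its other probe set gave 3.67. These 2 genes were called under all 19 settings tried.

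Adm encodes adrenomedullin, a peptide that widens blood vessels. Its signal was low throughout: 22.49 unstimulated, 182.6 and 128.6 with LPS, and 71.72 and 37.61 with thapsigargin. Only the 2 wild-type LPS arrays exceeded the filter of 99.2, so the gene was tested only because it was high there. The change was 2.77 ± 0.44 on the floored log2 scale and 2.14 with a pseudocount of 16 in place of the floor. A fit with no filter, over 11218 genes, called it as well (limma, adjusted p = 0.0305). P4ha2 encodes a catalytic subunit of collagen prolyl hydroxylase, and its signal was 35.52 unstimulated and 191.2 and 153.3 with LPS. It rose by 2.27 ± 0.55 (limma, adjusted p = 0.0441), a call that was lost in the fit with no filter. Mxi1, a MAX partner that opposes MYC, had signals of 764.2 unstimulated and 2049 and 1763 with LPS, a rise of 1.31 ± 0.20 (limma, adjusted p = 0.0126). Its dimmer probe set gave 0.74 and was not called on its own, and Mxi1 was not called with the mean over its probe sets. Neither P4ha2 nor Mxi1 was called when any single array of the wild-type LPS or thapsigargin arrays was left out. Both LPS arrays lay above the unstimulated array for each of these 3 genes.

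The other 9 hypoxia genes were not called in wild-type cells. Ndrg1, a stress-responsive gene whose protein is linked to growth arrest, had signals of 1150 unstimulated and 3473 and 4207 with LPS. Its change was 1.73 ± 0.70 (limma, adjusted p = 0.146), and its 5 probe sets gave between 1.57 and 1.87. Hif1a itself had signals of 4373, 5230 and 8569, a change of 0.61 ± 0.23 (limma, adjusted p = 0.13), and its 3 tested probe sets did not share a sign. The prolyl hydroxylases that mark HIF-1α gave 0.21 ± 0.37 for Egln1 and 1.02 ± 0.40 for Egln3. P4ha1, the other collagen prolyl hydroxylase subunit, gave 0.96 ± 0.63. Changes for the remaining genes were 0.50 ± 0.49 for Ak4, a mitochondrial adenylate kinase, 0.29 ± 0.24 for Higd1a, a mitochondrial protein of the respiratory chain, 0.17 ± 0.28 for Bhlhe40, a transcriptional repressor, and 0.01 ± 0.28 for Plin2, a coat protein of lipid droplets.

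Among the transporters, Slc2a1, which encodes the glucose transporter GLUT1, had signals of 2529 unstimulated and 6444 and 5986 with LPS. Both LPS arrays were above the unstimulated one, and the change of 1.30 ± 0.35 narrowly missed the threshold (limma, adjusted p = 0.0554). It passed in 5 of the 19 settings. Slc16a3, the lactate exporter MCT4, had signals of 219.7, 448.6 and 458.3, a change of 1.05 ± 0.53 (limma, adjusted p = 0.226).

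The enzymes had smaller changes. Tpi1, triose phosphate isomerase, had the largest positive one, with signals of 5321, 11820 and 8729 and a change of 0.93 ± 0.37 (limma, adjusted p = 0.143). Pfkp, the platelet isoform of phosphofructokinase, had the largest negative one, with signals of 2106, 1100 and 865.6 and a change of -1.11 ± 0.33 (limma, adjusted p = 0.0696). Changes in the upper part of the pathway were -0.07 for Hk1 and 0.19 for Hk2, the hexokinases, 0.32 for the liver phosphofructokinase Pfkl and 0.03 for the aldolase Aldoa. In the lower part they were 0.35 for the phosphoglycerate kinase Pgk1, -0.22 for the mutase Pgam1, 0.25 for the pyruvate kinase Pkm and 0.40 for the lactate dehydrogenase Ldha. The 95% intervals were wide: that of Pkm ran from -1.26 to 1.77 and that of Ldha from -0.27 to 1.07, so a 2-fold rise lay within both. Over all 10 arrays the highest signal of an enzyme was between 1.53 and 2.99 times its lowest, while among the hypoxia genes this ratio reached 21.3, for Ddit4.

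The 2 regulators moved apart in value. Pfkfb3, which makes the activator fructose 2,6-bisphosphate, had signals of 285, 637.2 and 908.1, a change of 1.42 ± 0.65 (limma, adjusted p = 0.189). Pdk1, the kinase that shuts off pyruvate dehydrogenase and a textbook HIF-1 target, had signals of 430.5, 134.2 and 267.5. Its change was -1.18 ± 0.32 (limma, adjusted p = 0.0578), opposite in sign to every hypoxia gene tested.

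Read without a model, 9 of the 28 genes were at least 2-fold above the unstimulated array at both 48 and 60 h, and none was 2-fold below it at both. This held for 8.13% and 9.74% of all genes. The 9 were Slc2a1, Slc16a3, Pfkfb3, Vegfa, Adm, Ddit4, Ndrg1, P4ha2 and Mxi1. The number called by limma moved with the arrays in the fit. It was lower when any 1 of the wild-type LPS arrays or of the thapsigargin arrays was left out. It was higher when either CD14-deficient LPS array was left out. The share of all genes called moved in the same way. Without either of those CD14-deficient arrays, Slc2a1, Slc16a3, Pfkfb3, Tpi1, Pgk1 and Ldha were called higher and Pfkp and Pdk1 lower. The median change of the glycolysis genes stayed at 0.29 in these fits, so the lack of glycolysis calls rests on the error estimate.

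**Figure D2:**
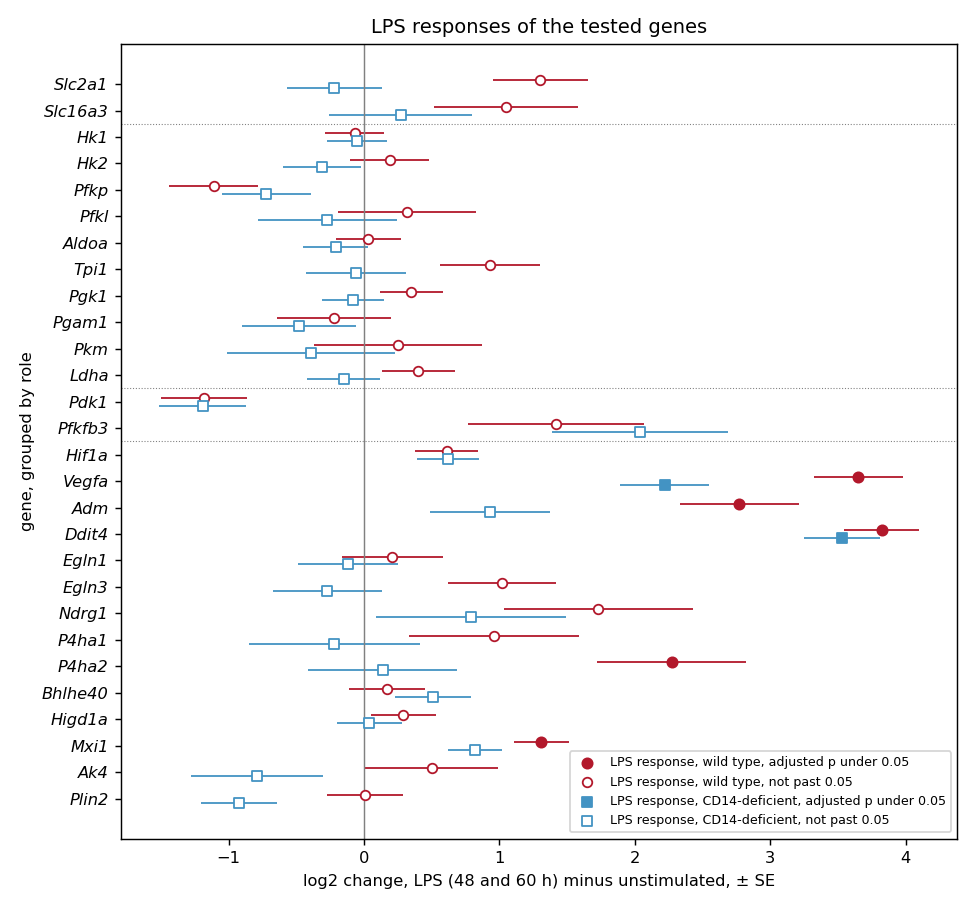
Log2 change between LPS (48 and 60 h together) and unstimulated cells for the 28 tested genes, grouped by role, in wild-type (circles) and CD14-deficient cells (squares); bars are ± SE from the limma model and filled symbols have an adjusted p under 0.05. Filled wild-type symbols are Vegfa, Adm, Ddit4, P4ha2 and Mxi1, and the filled CD14-deficient symbols are Vegfa and Ddit4.

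Of 23 other tested genes of the hypoxia pathway, from a second list, 8 rose, 0 fell and 15 were not called in the same comparison, where 7.69% of all genes were called higher and 8.24% lower. Their median change was 1.31. Hilpda, a hypoxia-inducible protein of lipid droplets, rose by 3.59 ± 0.37 (limma, adjusted p = 0.00536). Rora, a nuclear receptor, rose by 2.48 ± 0.30, Cxcr4, a chemokine receptor, by 2.25 ± 0.40, and Pnrc1, a nuclear receptor coactivator, by 2.10 ± 0.41. Of 24 other genes of glucose metabolism, 0 rose and 1 fell: Tkt, the transketolase of the pentose phosphate pathway, by 1.27 ± 0.15 (limma, adjusted p = 0.00794). Their median change was -0.39.

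Some cell markers were called with LPS as well, where 7.69% of all genes were called higher and 8.24% lower in wild-type cells. Of 10 cell division genes, 8 fell in wild-type and 8 in CD14-deficient cells. Of the 12 dendritic cell markers, 1 rose and 2 fell in wild-type cells, and of 11 macrophage markers 1 rose and 2 fell. Of 5 tested neutrophil markers, Lcn2 rose and S100a8, S100a9 and Ngp fell. The summed signal of all 8 on the array went from 9117 unstimulated to 10410 and 12270 with LPS, and without Lcn2, a gene that macrophages also express, from 8860 to 1984 and 1806. Lcn2 alone went from 257.3 to 8424 and 10460, S100a8 from 5953 to 1698 and 1514, and S100a9 from 2410 to 34.2 and 35.55. Dcn and Lum, 2 of 5 stromal markers, rose, with a summed list signal of 25.37 unstimulated and 1106 and 2885 with LPS, while Col1a1 stayed at or under 17.88 and Col3a1 at or under 24.6 on all arrays. Of 2 tested mast cell markers, Hdc rose. The other, Cpa3, had lower signals with LPS (144.2 unstimulated, then 44.21 and 20.39) and was not called. Mcpt8 and Fcer1a, not tested, also had lower signals with LPS. Mcpt8 was at 70.19, then 17.81 and 1.245, and Fcer1a at 15.63, then 0.4891 and 2.231. The filter on dim signals favoured some of these calls. Ngp, Cd209a, Clec10a, Mrc1 and Ccnb2 exceeded 99.2 only on the unstimulated arrays, which favoured a fall. Dcn and Hdc exceeded it only on stimulated arrays, and Lum only on arrays with LPS alone, which favoured a rise. The part of the marker shifts in the changes above was not tested.

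In CD14-deficient cells, LPS raised 2 of the 28 genes and lowered none, where 4.17% of all genes were called, 2.17% higher and 2.01% lower. Ddit4 had signals of 119.4 unstimulated, 1142 and 1673 with LPS, and 2465 and 2538 with LPS and thapsigargin. All stimulated arrays were well above the unstimulated array, and the LPS change was 3.53 ± 0.28 (limma, adjusted p = 0.00669). Vegfa had signals of 322.7 unstimulated, 1819 and 1234 with LPS, and 2986 and 3040 with thapsigargin, an LPS change of 2.22 ± 0.33 (limma, adjusted p = 0.0281). The call of Ddit4 held in all 19 settings and that of Vegfa in 12.

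The hypoxia genes had a median change of 0.33 in CD14-deficient cells, with 9 of 14 positive, and the glycolysis genes a median of -0.22, with 2 of 14 positive. All genes tested had a median of 0.03. On deposited values without scaling, these medians were 0.46, -0.08 and 0.16. The enzymes had 10 of 10 negative changes in the model, from -0.72 for Pfkp to -0.05 for Hk1, none of them called. Their sign turned between the LPS arrays: against the unstimulated array 0 of 10 enzymes were positive at 48 h and 9 of 10 at 60 h, with medians of -0.60 and 0.11. Pkm gave -1.12 and 0.35, and Pfkl gave -0.82 and 0.28. The glycolysis median was 0.23 without the 48 h array and -0.63 without the 60 h array. P4ha2 had signals of 75.26 unstimulated and 55 and 125.4 with LPS, so that the unstimulated array lay between the LPS arrays, and its change was 0.14 ± 0.55. Slc2a1 had signals of 3042, 1856 and 3654, a change of -0.22 ± 0.35, with the unstimulated array again in between.

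Adm was under the floor on the unstimulated CD14-deficient array (13.31) and at 24.05 and 27.2 with LPS. The ratio was at least 1.91, and it was not called (limma, adjusted p = 0.277). Pfkfb3, with signals of 252.9, 1847 and 584.9, gave 2.04 ± 0.65 (limma, adjusted p = 0.144), and Pdk1, with 805.3, 276.4 and 451.9, gave -1.19 ± 0.32 (limma, adjusted p = 0.104). Mxi1 had signals of 990.2, 2036 and 1496, a change of 0.82 ± 0.20 (limma, adjusted p = 0.0824), and Plin2 had 7629, 2884 and 5636, a change of -0.92 ± 0.28 (limma, adjusted p = 0.128). Pfkfb3, Vegfa and Ddit4 were at least 2-fold above the unstimulated array at both times, as were 4.60% of all genes. When the 60 h LPS array of this genotype was left out, 7 of the 28 genes were called higher and 14 lower, where 38.6% of all genes were called. Without the 48 h array 6 were called, all higher, beside 1188 of the 7417 genes tested there. When any other stimulated array was left out only Ddit4 was called, and the share of all genes called was lower as well.

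Of the other pathway lists in this comparison, Hilpda rose by 1.95 ± 0.37 (limma, adjusted p = 0.0481), the only one of 23 hypoxia genes called. Slc16a1, the lactate and pyruvate transporter MCT1, fell by 1.56 ± 0.26 (limma, adjusted p = 0.0363), the only one of 24 glucose genes called. Of all genes, 2.17% were called higher and 2.01% lower. Of the 11 macrophage markers, 1 fell, with a median change of -1.51, and of the 12 dendritic cell markers 2 rose and 2 fell. Of 5 tested neutrophil markers, Lcn2 rose and S100a8 and Ngp fell. Dcn and Lum, the 2 tested stromal markers, rose, as did Hdc, 1 of 2 tested mast cell markers. The filter favoured the fall of Ngp and the rises of Dcn, Lum and Hdc, as in wild-type cells. The part of the markers in the result was not tested.

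The 2 LPS responses were compared by the difference of their changes, CD14-deficient minus wild type. None of the 28 genes and none of the 7474 genes was called (0%), while 4 of the 28 and 613 of all genes had an unadjusted p under 0.05. The 4 were P4ha2 at -2.13 ± 0.77, Adm at -1.84 ± 0.63, Slc2a1 at -1.52 ± 0.49 and Vegfa at -1.43 ± 0.46, with limma adjusted p-values from 0.546 to 0.579. For Ddit4 the difference was smaller than its error at -0.29 ± 0.39, with a 95% interval from -1.25 to 0.67. The median difference was -0.94 for the hypoxia genes, -0.46 for the glycolysis genes and 0.06 for all genes, the last of which was 0.27 without scaling. The glycolysis median rested on 1 array: of the CD14-deficient LPS arrays, dropping the one at 48 h gave 0.01 and dropping the one at 60 h gave -0.86. The hypoxia median was -0.60 and -0.90 in these fits. With the 2 arrays of lowest cRNA yield left out together, the medians were -0.40 for the hypoxia and 0.05 for the glycolysis genes. Genes were called only in fits without 1 of the CD14-deficient LPS arrays, among all genes as well as among the 28.

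Between the genotypes under LPS, only Adm was called among the 28 genes, and its test was favoured by the filter. This comparison uses the same LPS arrays as both LPS responses. Of the 28 genes, 1 was lower and 0 were higher, where 5.18% of all genes were called and 2.61% were lower. Adm stood at 182.6 and 128.6 in wild-type and at 24.05 and 27.2 in CD14-deficient cells, with no overlap. The difference on the floored log2 scale was -2.58 ± 0.36 (limma, adjusted p = 0.0274), and -2.03 with a pseudocount of 16. Adm passed the filter only through the 2 wild-type arrays compared here, and a fit with no filter placed it at the threshold (limma, adjusted p = 0.05). The CD14-deficient signals were too low to be told from background, so the size of the difference is not known. It was the only one of the 28 that was 2-fold lower at both times, as were 2.19% of all genes, and without either wild-type LPS array it no longer passed the filter.

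Slc2a1 was at 6444 and 5986 in wild-type and at 1856 and 3654 in CD14-deficient LPS cells. The groups did not overlap, and the difference of -1.25 ± 0.28 missed the threshold (limma, adjusted p = 0.0626). Plin2 gave -0.93 ± 0.23 (limma, adjusted p = 0.0725), Pdk1 gave 0.90 ± 0.26 (limma, adjusted p = 0.0967) and Vegfa gave -0.79 ± 0.27 (limma, adjusted p = 0.128). The other probe set of Vegfa gave -1.90 ± 0.19, and Vegfa was called lower with the mean over probe sets. Ddit4 differed by -0.55 ± 0.23 and was not called. Leaving out either CD14-deficient LPS array gave more calls among these genes, and leaving out any other stimulated array gave fewer. The share of all genes called moved in the same way. Pfkl and Pgam1 were called higher without the 48 h array and lower without the 60 h array. At 48 h 2 of the 10 enzymes were higher in CD14-deficient than in wild-type LPS cells and at 60 h 9 of 10, with median differences of -0.59 and 0.32.

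From the other pathway lists, Hilpda was lower in CD14-deficient LPS cells, at -2.16 ± 0.30 (limma, adjusted p = 0.0274). Arnt, the partner of HIF-1α, gave -1.20 ± 0.23 (limma, adjusted p = 0.0451). These were 2 of 23 hypoxia genes. Of the glucose genes, Slc16a1 was lower, at -1.29 ± 0.21 (limma, adjusted p = 0.0348), and Tkt higher, at 0.71 ± 0.12 (limma, adjusted p = 0.0387). Among cell markers, 4 of 10 cell division genes and 1 of 12 dendritic cell markers were higher, and 1 of 11 macrophage markers was lower. So was 1 of 2 tested stromal markers, while 1 of 5 tested neutrophil markers, Camp, was higher. Of all 7474 genes, 192 were called higher and 195 lower. The part of the markers in these differences was not tested.

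Thapsigargin added to LPS raised P4ha2 in CD14-deficient cells. Of the 28 genes, 1 rose and 0 fell, where 6.62% of all genes were called and 3.43% were higher. P4ha2 stood at 55 and 125.4 with LPS and at 546.9 and 367.8 with LPS and thapsigargin, with both thapsigargin arrays above both LPS arrays, a change of 2.43 ± 0.45 (limma, adjusted p = 0.0343). In wild-type cells it went from 191.2 and 153.3 to 616.7 and 527.4, also without overlap, and the change of 1.74 ± 0.45 was not called (limma, adjusted p = 0.312). There, none of the 28 genes was called, and 0.0535% of all genes were. At an unadjusted p under 0.05 there were 2 of the 28 and 770 of all genes.

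Adm went opposite ways in value. In CD14-deficient cells it was at 24.05 and 27.2 with LPS and at 81.65 and 64.38 with thapsigargin, a change of 1.50 ± 0.36 (limma, adjusted p = 0.0629). In wild-type cells it was at 182.6 and 128.6 with LPS and at 71.72 and 37.61 with thapsigargin, a change of -1.56 ± 0.36 (limma, adjusted p = 0.264). In both genotypes the 2 groups did not overlap, and the signals were under the filter of 99.2 on 8 of the 10 arrays, all but the wild-type LPS arrays, so the sizes given here are between dim signals. The difference of the 2 effects was 3.06 ± 0.51 (limma, adjusted p = 0.166). Counted without a model, P4ha2 and Adm were the 2 genes of the 28 at least 2-fold higher with thapsigargin at both times in CD14-deficient cells, as were 2.77% of all genes. In wild-type cells P4ha2 was 2-fold higher and Adm 2-fold lower at both times, as were 1.10% and 1.74% of all genes.

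**Figure D3:**
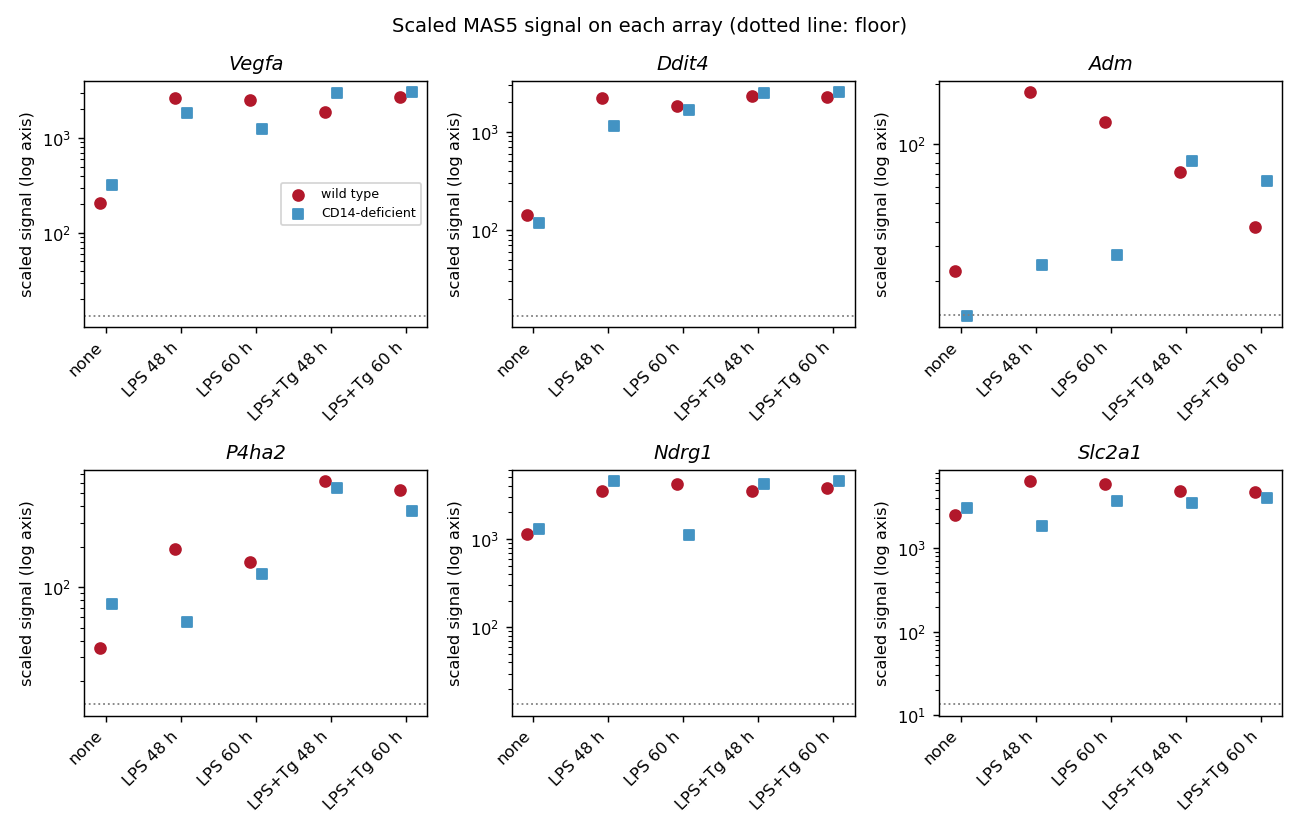
Scaled MAS5 signal (log axis) of Vegfa, Ddit4, Adm, P4ha2, Ndrg1 and Slc2a1 on each array, by treatment, in wild-type (circles) and CD14-deficient cells (squares); each point is 1 array, Tg is thapsigargin and the dotted line is the floor of 13.4. P4ha2 is highest on the 4 thapsigargin arrays, and Ndrg1 on the CD14-deficient LPS array at 60 h (1098) lies beside the unstimulated arrays.

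In CD14-deficient cells, Vegfa changed with thapsigargin by 1.01 ± 0.27 (limma, adjusted p = 0.0765), Ddit4 by 0.86 ± 0.23 (limma, adjusted p = 0.076) and Pdk1 by -0.84 ± 0.26 (limma, adjusted p = 0.107). In wild-type cells the same genes gave -0.21 ± 0.27, 0.19 ± 0.23 and 0.16 ± 0.26. The 10 enzymes gave between -0.48 for Hk1 and 0.46 for Pkm in CD14-deficient cells and between -0.06 for Tpi1 and 0.57 for Pfkp in wild-type cells. In CD14-deficient cells 9 of 10 enzymes were positive at 48 h and 0 of 10 at 60 h, with medians of 0.59 and -0.33. No gene of the 28, and none of all genes (0%), was called for a difference of the thapsigargin effects between genotypes. At an unadjusted p under 0.05 there were 4 of the 28 and 994 of all genes. The CD14-deficient effect shares its LPS arrays with the comparison of genotypes under LPS. Leaving out the CD14-deficient LPS array at 48 h or at 60 h gave more calls in the CD14-deficient effect, the wild-type effect and their difference. The share of all genes called was higher in each as well. Pfkl and Pgam1 were called lower in the CD14-deficient effect without the 48 h array and higher without the 60 h array. P4ha2 was not called in CD14-deficient cells without any 1 of the other 6 stimulated arrays, nor under the filters that kept every gene or only genes bright on all arrays, of which the latter did not test it.

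Among the other hypoxia genes, Hilpda (1.97 ± 0.30, limma adjusted p = 0.0229) and Arnt (1.69 ± 0.23, limma adjusted p = 0.0191) rose with thapsigargin in CD14-deficient cells, and Lox, which cross-links collagen, fell by 2.79 ± 0.35 (limma, adjusted p = 0.0178). Slc16a1 rose by 1.24 ± 0.21 (limma, adjusted p = 0.0293), the only one of 24 glucose genes called. None of either list was called in wild-type cells. With thapsigargin the summed macrophage markers were 34460 and 28800 in wild-type cells, against 46430 and 39540 with LPS alone, and 31580 and 27390 in CD14-deficient cells, against 20970 and 42650. The neutrophil markers summed to between 3243 and 4779 on the 4 thapsigargin arrays and to between 8436 and 12270 on the 4 LPS arrays. Lcn2 made up most of both, with 2532 to 4011 and 6172 to 10460, and without it the sums were 664.9 to 769 and 1806 to 2264. In CD14-deficient cells 4 of 10 cell division genes, 2 of 5 neutrophil markers and 1 of 12 dendritic cell markers fell with thapsigargin. Of all 7474 genes, 256 were called higher and 239 lower there. In wild-type cells none of these lists had a called member, where 1 of all genes was called higher and 3 lower. The part of the markers in the changes was not tested.

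With thapsigargin present, none of the 28 genes was called between the genotypes, and 0.0268% of all genes were. None of the 28 and 329 of all genes had an unadjusted p under 0.05. The differences ran from -0.86 ± 0.40 for Ak4 to 0.48 ± 0.36 for Adm, and the median was -0.14. Of the 28 genes, 7 were positive, as were 3397 of all 7474 genes. Ak4 gave -1.24 at 48 h and -0.48 at 60 h. None of the 28 genes was 2-fold apart in 1 direction at both times, as 0.401% of all genes were upward and 0.549% downward. Ddit4 was at 2331 and 2265 in wild-type and at 2465 and 2538 in CD14-deficient cells. P4ha2 was at 616.7 and 527.4 against 546.9 and 367.8, with the groups overlapping.

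Between the unstimulated cultures, 1 array of each genotype, no gene of the 28 was called, and 0.0134% of all genes were. At an unadjusted p under 0.05 there were 1 of the 28 and 86 of all genes. The values were higher on the CD14-deficient array for 25 of 28 genes, with a median of 0.26 where all genes had 0.01. Without scaling, the medians were 0.09 for the glycolysis genes, 0.05 for the hypoxia genes and -0.16 for all genes. Egln3, whose protein is a prolyl hydroxylase of HIF-1α, had signals of 389.7 and 1222, a difference of 1.65 ± 0.47, and it was the gene with the unadjusted p of 0.0125.

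Between 48 and 60 h the enzyme signals went up in CD14-deficient LPS cells and mostly down elsewhere. In CD14-deficient LPS cells all 10 enzymes had a higher signal at 60 h, with a median shift of 0.66. In the other 3 conditions the median shift was -0.32 in wild-type LPS, -0.25 in wild-type thapsigargin and -0.27 in CD14-deficient thapsigargin cells, and 2, 1 and 1 of the 10 were positive. All genes tested had medians of -0.04 in CD14-deficient LPS cells and 0.09, 0.06 and 0.04 in the others. Each shift compares 1 array with 1 array, with no test. The model's shared shift called none of the 28 and none of all genes (0%), and 3 of the 28 and 734 of all genes had an unadjusted p under 0.05.

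Pkm was at 2022 at 48 h and 5574 at 60 h in CD14-deficient LPS cells, the largest shift of the 28 genes upward at 1.46. Its other 8 arrays ran from 3645 to 5914. Pgam1 was at 3275 and 6754, Pfkl at 864.1 and 1848, and P4ha1 at 429.7 and 1150. Of the 10 enzymes, 6 had their lowest signal of all arrays on the CD14-deficient LPS array at 48 h: Hk2, Pfkl, Aldoa, Pgam1, Pkm and Ldha. So did Slc2a1 and the hypoxia genes P4ha1, Higd1a, Ak4 and Plin2, which made 11 of the 28, where 18.2% of all genes had their lowest signal there.

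Ndrg1 and Pfkfb3 went the other way. Ndrg1 was at 4537 at 48 h and 1098 at 60 h, a shift of -2.05, and all 5 of its probe sets were lower at 60 h. The 60 h value lay below that of both unstimulated arrays (1150 and 1295), while the other 7 stimulated arrays ran from 3473 to 4542. Pfkfb3 was at 1847 and 584.9, a shift of -1.66, with its highest signal of all arrays at 48 h, as had Bhlhe40 at 8548. These 2 of the 28 compare with 21.0% of all genes. Of the 28 genes, 7 were at least 2-fold higher and 2 at least 2-fold lower at 60 h, where 17.4% of all genes were 2-fold apart. In the other conditions none of the 28 was, and 6.57%, 1.54% and 2.53% of all genes were. The 48 h array is the one with the low cRNA yield, the low 18S signals, the low macrophage sum and the high dendritic marker sum, and the 60 h array is the one whose 18S 5' and Itgax signals lay near those of unstimulated cells. The part of those differences in the shift was not tested.

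**Figure D4:**
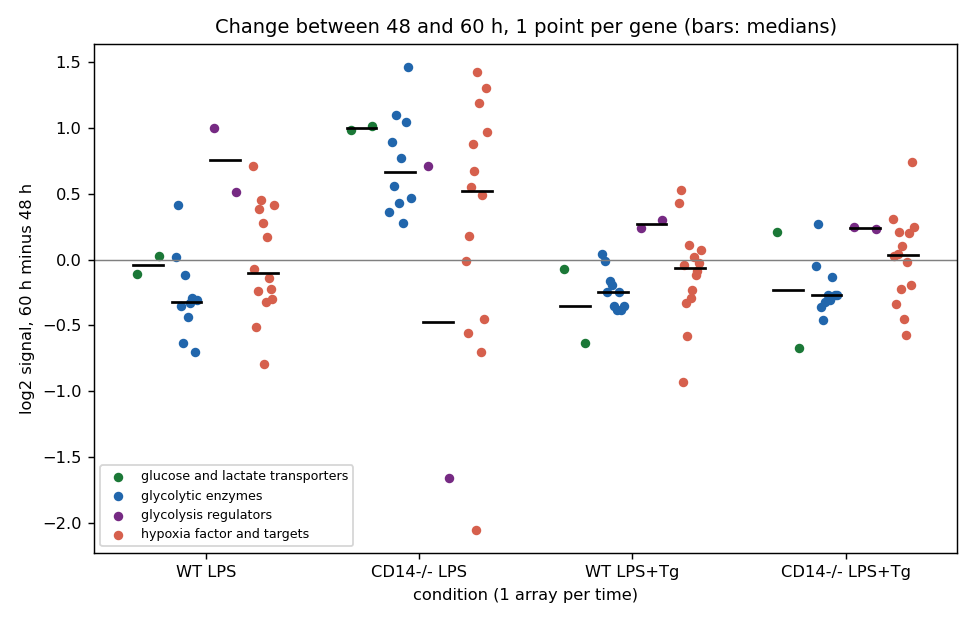
Log2 signal at 60 h minus that at 48 h for the 28 tested genes (1 point each, coloured by role) in the 4 stimulated conditions, 1 array per time; black bars are medians of each role and Tg is thapsigargin. All enzyme points lie above 0 in CD14-deficient LPS cells (median 0.66), and most lie below 0 in the other 3 conditions.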

How the data were processed

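The authors deposited 1 linear intensity per probe set and array, a MAS5 signal per the submitters' processing notes, with no version or scaling target stated there. The 2% trimmed means of the deposited arrays ran from 444 to 553, so each array was scaled to 509. The floor was the 25th percentile over all arrays, 13.4, and log2 was taken of the deposited values so scaled. Probe sets were named from the platform's annotation table. Each gene was represented by its brightest probe set with 1 symbol, and kept when above the pooled median, 99.2, on at least 2 arrays.

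All 10 arrays entered 1 model in limma 3.58.1 (R 4.3.3), with 6 levels of genotype and treatment, a term for 60 against 48 h, and eBayes with an intensity trend (3 residual degrees of freedom, prior 2.95). P-values are two-sided and adjusted by Benjamini-Hochberg over 7474 genes within each of 10 comparisons. The script was tested on simulated data. With 10 arrays the precision is limited, and p-values measure only the spread between these arrays, with each unstimulated array assumed to vary like the others. The genes described and all lists were chosen with earlier results of these data known. All 33 genes are named; of the 2 lists of other pathway genes, up to 4 called genes per comparison with the smallest adjusted p are named, and marker genes were named after their values were seen. Markers were listed for dendritic cells, macrophages, neutrophils, stromal cells, T and B cells, mast cells and basophils, and cell division. Alternatives changed the scaling, floor, filter, probe set rule, variance model, time term and arrays. Promoter windows and names come from RefSeq (GRCm38.p6).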

Additional observations from a re-analysis of the deposited data

Results flagged for a closer look

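The Adm signal under LPS differed in opposite directions with thapsigargin in the 2 genotypes at both times. The log2 difference was -1.35 at 48 h and -1.77 at 60 h in wild-type cells, and 1.76 and 1.24 in CD14-deficient cells. The difference of the effects was 3.06 ± 0.51 (limma, adjusted p = 0.166), so it did not pass the correction over 7474 genes, and it ranged from 2.40 to 3.45 over the 15 settings that tested Adm. Both effects are taken against the LPS arrays, on which Adm stood at 182.6 and 128.6 in wild-type and at 24.05 and 27.2 in CD14-deficient cells. Adm passed the filter of 99.2 only through these wild-type arrays, and the CD14-deficient values were too low to be told from background, so neither the sizes nor the difference are firm.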

How the results depend on the processing

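Each comparison was refitted under up to 18 other settings, and 0 of the changes called in the report reversed. Of the refits of these changes, 118 kept the call and 34 lost it. The settings share most of their arrays, so a kept direction is weak support. Directions of other genes were not stable: leaving out the CD14-deficient LPS array at 48 h (alone or with that of wild-type cells at 60 h) or that at 60 h gave opposite calls for Tpi1, Pkm and P4ha1 in the CD14-deficient LPS response, Pfkl and Pgam1 between the genotypes under LPS, Pfkl, Pgam1 and Pkm for thapsigargin in CD14-deficient cells, and Pgam1 for the difference of the thapsigargin effects. Settings not named here kept the number of the 28 genes called within 1.5 times. In the wild-type LPS response (5 called), deposited values with no scaling gave 8, the strict filter on dim signals 3 and leaving out the arrays of lowest cRNA yield together (CD14-deficient LPS 48 h and wild-type LPS 60 h) 17; leaving out 1 array gave 2 to 17. In the CD14-deficient LPS response (2 called), no filter gave 1, the low-yield arrays left out 12, and 1 array left out 1 to 21. For the difference of the LPS responses (0 called) the last 2 gave 3, and 0 to 14. For the genotypes under LPS (1 called), quantile normalization gave 2, no scaling 3, the strict filter 0, the mean over probe sets 2, the low-yield arrays left out 8, and 1 array left out 0 to 17. For thapsigargin in wild-type cells (0 called) the low-yield arrays left out gave 4 and 1 array left out 0 to 3. For thapsigargin in CD14-deficient cells (1 called), no filter gave 0, the strict filter 0, no intensity trend 2, the mean over probe sets 3, the low-yield arrays left out 15, and 1 array left out 0 to 16. For the difference of the thapsigargin effects (0 called) the last 2 gave 9, and 0 to 13. For the genotypes with thapsigargin (0 called) the low-yield arrays left out gave 3. For 60 against 48 h (0 called) 1 array left out gave 0 to 1. The comparison of unstimulated cells gave 0 in all settings run. The strict filter tested 26 of the 28 genes, and the cause of the other shifts was not tested. Where leaving out arrays moved the number of the 28 genes called, the share of all genes called moved in the same direction. No paired analysis was possible because the labels give no replicate numbers; arrays of 1 time are matched across conditions only by the model's 60 against 48 h term, and without it the same number of genes was called in each of the other comparisons.

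The limits are those of 10 arrays without replicates: the error comes from 3 residual degrees of freedom, and the model assumes the same spread on all arrays. Between the CD14-deficient LPS arrays 17.4% of all genes were 2-fold apart, against at most 6.57% in the other conditions, so that assumption is strained where they enter. Without scaling, the median over all genes was 0.27 for the difference of the LPS responses, 0.16 for the CD14-deficient LPS response, 0.15 for 60 against 48 h and -0.16 for the unstimulated genotypes, so small changes there rest on the scaling. Signals near the floor, as for Adm, do not separate a low level from background.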

Other observations

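In all, 3 probe sets carried a symbol of these genes together with other symbols and entered no comparison. The probe set shared by Gapdh and 4 other symbols ran from 10640 to 14350 over the 10 arrays, and the one shared by Gapdh and a pseudogene from 175.2 to 350.1. The one shared by Hk1 and 5 symbols of ribosomal protein genes and pseudogenes ran from 6346 to 9734.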
